A study of Mus musculus with 10 samples.

Results

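The mitochondrially encoded transcripts are the RNAs copied from the small circular genome inside the mitochondrion. They were taken as every gene of the expression table whose mouse symbol, looked up from its Ensembl identifier, begins with mt-. This gave 21 of the 30074 genes in the table. They comprised all 13 annotated mRNAs, both annotated rRNAs (2 genes) and 6 of the 22 annotated tRNAs, and the other 16 tRNAs were not analysed here. RNA sequencing had been done on whole hearts of wild-type (WT) male C57BL/6 mice, aged 8 to 12 weeks and weighing about 25 g. All 10 mice received lipopolysaccharide (LPS), a bacterial endotoxin, by intraperitoneal injection, as a model of septic cardiomyopathy. In 5 of them the antimalarial artesunate was injected intraperitoneally at 50 mg/kg, 10 min ahead of LPS and once more 4 h later (LPS+ART). The remaining 5 received vehicle (LPS+Vehicle), whose composition is not given in the sources used here. Cardiac function was assessed 24 h after LPS, and a separate time for taking the hearts was not given. Hearts without LPS were not analysed here.

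Mitochondrial DNA is transcribed from both strands into long precursor RNAs by the polymerase Polrmt with the factors Tfam and Tfb2m. The tRNAs lie between most of the other genes, and cutting them out releases the rRNAs and mRNAs. The rRNAs build the mitochondrial ribosome, and the mRNAs encode core subunits of respiratory complexes I, III and IV and of ATP synthase (complex V). All other subunits, and all proteins that copy, cut and modify mitochondrial RNA, are encoded in the nucleus. Heart muscle is rich in mitochondria, and mitochondrial mRNAs are among its most abundant transcripts. Most of these mRNAs carry a short poly(A) tail, whereas in human cells ND6 has none, and libraries made by oligo-dT capture select for such tails.

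The values are FPKM, reads scaled to the length of the gene and the size of the library. Read totals, worked out from FPKM and gene length, ran from 29980900 to 54222272 per library. LPS+Vehicle libraries 2 and 5 differed little: their chi-square over genes, divided by its degrees of freedom, was 1.76, and 13.6 to 47.9 for all other pairs of the same group. Mates of a pair appear to be counted apart, so the chi-square was taken on read pairs, where sampling alone gives about 1 or less. Whether LPS+Vehicle 2 and 5 are 1 library deposited in duplicate was not tested. With them averaged, the mitochondrial mRNAs called were the same 7 as with all libraries. LPS+ART replicates 3 and 4 resembled each other more (17.6) than they resembled replicates 1, 2 and 5 (34.0 to 47.9). The summed FPKM of 12 cardiomyocyte marker genes was 12363 to 14707 with artesunate and 10412 to 11312 with vehicle, and 6 of the 12 were called higher and 2 lower. The sum of 7 macrophage markers was 49.8 to 84.2 against 123 to 187, and that of 8 fibroblast markers 135 to 172 against 159 to 293. Of these, 6 macrophage and 5 fibroblast markers were called lower and none higher, where 52.9% of all genes tested were called lower and 11.8% higher. Sums for 8 endothelial markers (222 to 365 against 297 to 341), 7 of neutrophils (29.7 to 235 against 28.05 to 66.1) and 6 of red blood cells (56.8 to 129 against 19.99 to 66.6) overlapped, and those for 7 of pericytes and smooth muscle (122 to 175 against 184 to 247) did not. By gene, 5 endothelial, 5 pericyte or smooth muscle and 1 neutrophil marker were called lower, and 4 red blood cell markers higher. No marker was at 0 in all libraries. Whether these sums, some of which moved with the groups, bear on the mitochondrial transcripts was not tested. In whole hearts, fewer cells of a type and less RNA per cell cannot be told apart.

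The sequence of several mitochondrial mRNAs limits what their values mean, because the nuclear genome carries copies of mitochondrial DNA. Stretches of 100 bases were compared with all other transcripts annotated in GENCODE M21 (build GRCm38). In mt-Co2, mt-Atp6, mt-Co3, mt-Nd3 and mt-Nd4l, 97.6% to 99.9% of such stretches were also found in another annotated transcript. The share was 60.8% in mt-Nd4, 30.8% in mt-Co1 and 3.19% in mt-Nd2. It was 0 in mt-Nd1, mt-Nd5, mt-Nd6, mt-Cytb, mt-Atp8 and both rRNAs. With stretches of 50 bases it was 7.61% in mt-Nd5, 1.04% in mt-Rnr2, 51.1% in mt-Co1 and 8.19% in mt-Nd2. In mt-Nd1, mt-Nd6, mt-Cytb, mt-Atp8 and mt-Rnr1 the share stayed at 0. A read that matches 2 genes equally cannot be assigned by its sequence, and how such reads were counted is not given in the sources used here. The ends of mt-Co2 and of its chromosome 1 copy Gm28661 show how complete the match is. The capitals mark the only bases of mt-Co2 that the annotated copy lacks.
mt-Co2: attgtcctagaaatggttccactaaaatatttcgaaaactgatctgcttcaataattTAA
Gm28661: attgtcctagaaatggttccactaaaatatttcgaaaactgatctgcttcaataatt

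Such copies were found on chromosome 1 for 7 of these mRNAs. No base differed between mt-Co2 and Gm28661 over 681 bases, mt-Atp6 and Gm10925 over 678, mt-Co3 and Gm28437 over 783, mt-Nd4l and Gm10222 over 294, or mt-Nd4 and Gm28439 over 876. In mt-Nd3, the copy Gm28438 differed at 1 base of 345, T3C counted from the first base of the window printed here. A copy of mt-Nd2 on chromosome 2, Gm13339, had diverged further, with 17 differences in 510 bases. In the window printed for it, T31C and T55A separate the copy from the mitochondrial gene. Capitals mark the differing bases in both windows, with the mitochondrial base first in each named change.
mt-Nd3: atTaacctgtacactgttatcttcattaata
Gm28438: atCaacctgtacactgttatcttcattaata
mt-Nd2: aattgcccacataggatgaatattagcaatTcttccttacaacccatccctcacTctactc
Gm13339: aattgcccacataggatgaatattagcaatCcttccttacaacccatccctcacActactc

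The copies had their own FPKM values. Gm10925 stood at 1863 ± 159 FPKM with artesunate and 1425 ± 184 with vehicle (SD, 5 libraries each), close to its partner mt-Atp6 at 1774 ± 180 and 1431 ± 265. Across the 10 libraries the level of mt-Atp6 was 0.851 to 1.16 times that of Gm10925. The corresponding ratio was 2.15 to 2.56 for mt-Co2, 1.33 to 1.77 for mt-Co3, 1.48 to 1.81 for mt-Nd4l and 0.582 to 2.07 for mt-Nd3. The FPKM of these 5 mitochondrial genes is therefore uncertain. The level of mt-Nd4 was 14.6 to 22.6 times and that of mt-Co1 77.4 to 122 times that of its copy. These ratios do not show how reads from the shared stretches of mt-Nd4 and mt-Co1 were counted. Gm13339, the copy that can be told from mt-Nd2 by sequence, had only 5.93 ± 1.095 and 3.59 ± 1.30 FPKM, against 22318 ± 2395 and 13644 ± 579 for mt-Nd2. Gm29216, with 6 differences from mt-Co1 in 492 bases, had 795 ± 65.3 and 661 ± 109.5 FPKM, more than the identical copies Gm28439 (723 ± 178 and 569 ± 65.5) and Gm10222 (401 ± 67.8 and 332 ± 58.8). The 5 nearly fully shared mRNAs had mean levels of 234 to 2025 FPKM, with a median of 1274. The 5 without a shared stretch of 100 bases ranged from 191 to 34028 FPKM, with a median of 14495, and the lowest of them was mt-Atp8. How far the counting of shared reads enters these levels was not tested.

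**Figure D1:**
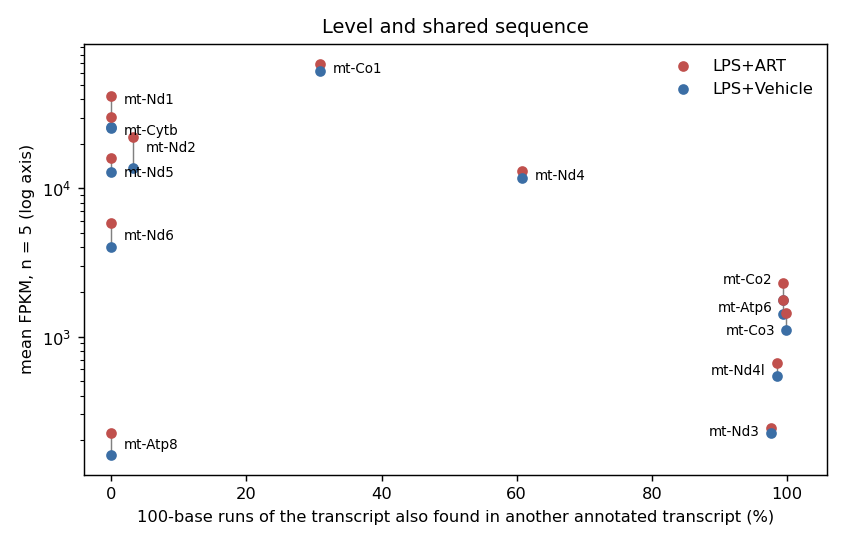
Mean FPKM of the 13 mitochondrial mRNAs in each group (n = 5 each, log axis) against the percentage of their 100-base stretches also found in another annotated transcript. The 5 mRNAs at 97.6% to 99.9% all lie at or below 2291 FPKM, while among the 5 at 0 only mt-Atp8 does.

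The mitochondrial mRNAs took a larger share of the reads with artesunate than with vehicle, while the rRNAs and tRNAs did not separate the groups. The mRNA share was 25.5, 23.6, 26.6, 29.2 and 25.3% in LPS+ART replicates 1 to 5. It was 19.6, 20.8, 19.9, 22.9 and 21.5% in LPS+Vehicle replicates 1 to 5. All LPS+ART values were thus above all LPS+Vehicle values, with means of 26.03 ± 2.06% and 20.9 ± 1.31% (SD, n = 5 each). The rRNA share was 1.00 ± 0.130% against 1.08 ± 0.350%, with 1.69% in LPS+Vehicle replicate 1 above every other library. The tRNA share was 0.0126 ± 0.00284% against 0.0107 ± 0.000969%, with overlapping groups. Members together made up 50.2 ± 2.49% of the summed FPKM with artesunate and 44.6 ± 1.34% with vehicle. The summed FPKM of all other genes was 212294 ± 5829 and 211867 ± 2060, which overlapped. These shares are described without a test.

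As counted, the larger share came mostly from the mRNAs of complex I, the NADH dehydrogenase that feeds electrons into the respiratory chain. They took 11.4 ± 1.02% of all reads with artesunate and 8.11 ± 0.612% with vehicle, without overlap, a difference of 3.29 percentage points out of 5.09 for all mRNAs. The mRNAs of complex IV, the oxidase that passes electrons to oxygen, took 11.03 ± 0.616% against 9.82 ± 0.522%. The complex III mRNA mt-Cytb took 3.47 ± 0.579% against 2.91 ± 0.286%, and the ATP synthase mRNAs 0.125 ± 0.0121% against 0.101 ± 0.0185%. The groups overlapped for complexes III, IV and V. The makeup of the mRNA pool itself also differed. Complex I mRNAs were 43.8 ± 1.32% of mitochondrial mRNA reads with artesunate and 38.7 ± 0.782% with vehicle, without overlap. Within that pool mt-Nd1 (15.6 ± 1.74% against 11.8 ± 0.611%) and mt-Nd2 (8.89 ± 0.565% against 6.78 ± 0.432%) lay above the LPS+Vehicle range in every LPS+ART library. Another complex I mRNA, mt-Nd4, lay below it in every LPS+ART library (6.89 ± 0.280% against 7.74 ± 0.271%). Complexes I, IV and V include mRNAs whose sequence is shared with nuclear copies. How far the counting of shared reads enters these shares was not tested.

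**Figure D2:**
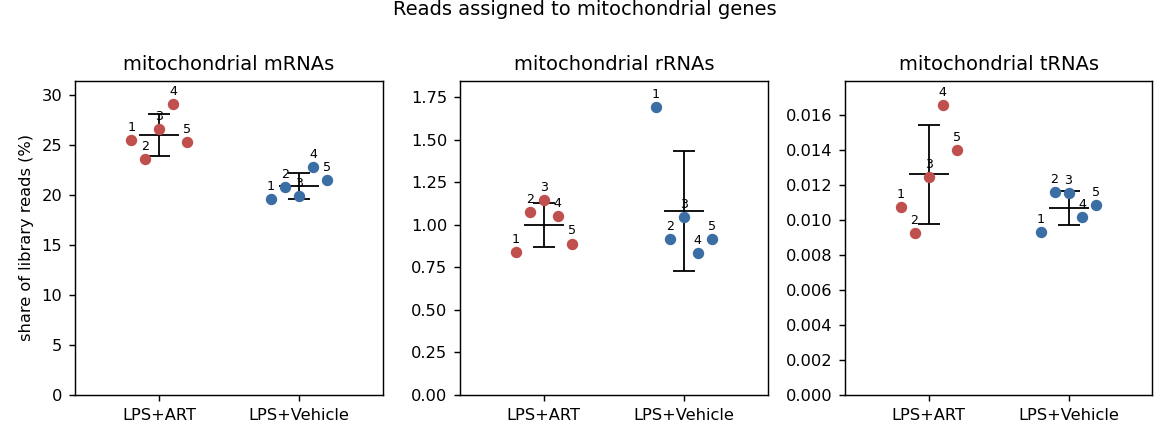
Percentage of library reads in mitochondrial mRNAs, rRNAs and tRNAs, each with its own axis from 0. Points are libraries marked with their replicate number, and lines show the mean and SD of each group (n = 5). The mRNA share lies between 23.6% and 29.2% with artesunate and between 19.6% and 22.9% with vehicle.

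Gene by gene, 7 of the 13 mRNAs were called higher in LPS+ART and none lower (limma on log2(FPKM + 1), Benjamini-Hochberg adjusted p under 0.05 over 13314 genes). The 7 were mt-Nd1, mt-Nd2, mt-Nd6, mt-Co2, mt-Co3, mt-Atp8 and mt-Atp6. Of all genes tested, 11.8% were called higher and 52.9% lower. The median log2 fold change of the 13 mRNAs was 0.32, against -0.27 for all genes tested. Abundant nuclear genes had a like median: among the 16 with a mean of at least 1000 FPKM, copies of mitochondrial DNA left out, it was 0.30, and 11 of them (68.8%) were called higher, or 15 (93.8%) after median-ratio scaling, 4 (25.0%) after cyclic loess and 3 (18.8%) relative to the mitochondrial mRNAs. Scaling bears on these counts. After median-ratio scaling the median of all genes was 0.02, 12 of the 13 mRNAs (all but mt-Nd3) were higher and none lower, and 29.9% of all genes were higher and 30.3% lower. With the trend along expression level removed by cyclic loess, 2 mRNAs were higher and 3 lower, against 29.0% and 28.7% of all genes. Relative to the sum of the 13 mRNAs themselves, 2 were higher and 2 lower, against 5.43% and 71.2% of all genes. These calls are not independent, because each mRNA is part of that sum and a rise of some lowers the others relative to it. The 13 mRNAs all passed the filter on low values, as did both rRNAs and 2 tRNAs, mt-Tc and mt-Tp.

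**Figure D3:**
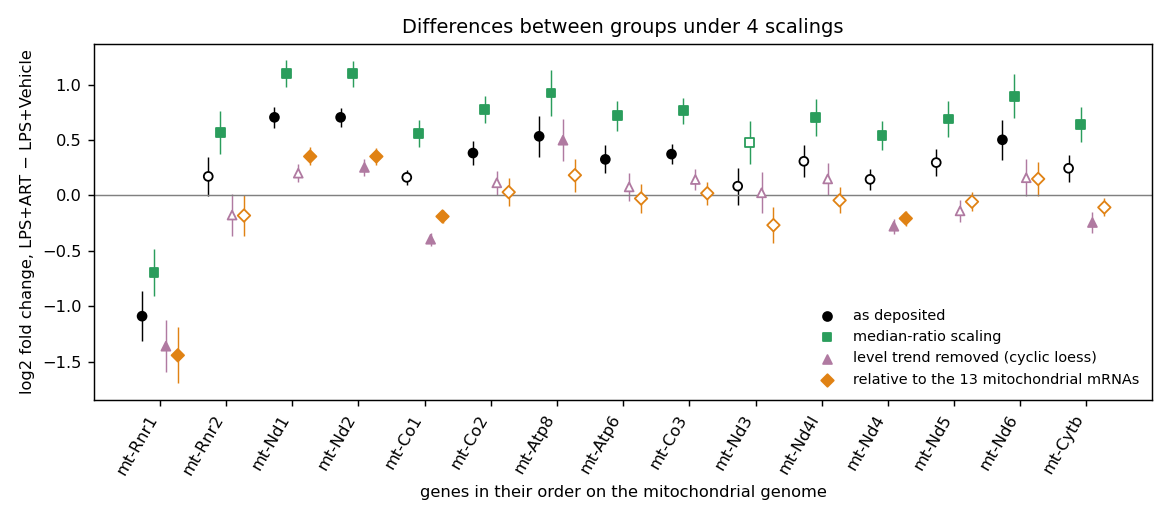
Log2 fold change of LPS+ART over LPS+Vehicle (limma on log2(FPKM + 1), bars are standard errors) for the mitochondrial rRNAs and mRNAs, as deposited and under 3 other scalings, with filled symbols for adjusted p under 0.05. Under the 4 scalings mt-Nd1 and mt-Nd2 stay above 0 and mt-Rnr1 stays below 0, while mt-Co1 and mt-Nd4 are above 0 as deposited and below 0 relative to the mitochondrial mRNAs and after cyclic loess.

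Of the complex I mRNAs, mt-Nd1 and mt-Nd2 differed most. mt-Nd1, which encodes a membrane-arm subunit next to the quinone site, stood at 46332, 41603, 36379, 44747 and 41747 FPKM in LPS+ART replicates 1 to 5. In LPS+Vehicle it stood at 25041, 25667, 22655, 29781 and 26332 FPKM. All LPS+ART libraries were above all LPS+Vehicle libraries, which held for 4 of the 13 mRNAs (mt-Nd1, mt-Nd2, mt-Co2 and mt-Co3) and for 7.54% of the genes tested. The mean of mt-Nd1 was 1.63 times as high in LPS+ART (log2 fold change 0.70, SE 0.09, limma adjusted p = 5.8e-05). mt-Nd2, a further membrane-arm subunit and proton pump, stood at 23143, 18512, 24265, 24147 and 21523 FPKM in LPS+ART. Its LPS+Vehicle values of 13013, 13791, 13621, 13270 and 14528 FPKM lay close together. The ratio of means was 1.64 (log2 fold change 0.70, SE 0.09, limma adjusted p = 3.6e-05). Relative to the mitochondrial mRNAs both were still called higher, at log2 differences of 0.35 and 0.35 (limma adjusted p = 0.0014 and 7.9e-04). After cyclic loess mt-Nd2 was called and mt-Nd1 had an adjusted p of 0.0501. Without the filter on low values mt-Nd1 kept its fold but lost the call (SE 0.31, limma adjusted p = 0.12), and mt-Nd2 kept it (adjusted p = 0.040).

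The other complex I mRNAs differed less. mt-Nd6, the one mRNA encoded on the light strand, ranged from 3981 to 7917 FPKM with a median of 6267 in LPS+ART and from 3334 to 5006 with a median of 3907 in LPS+Vehicle, so the groups overlapped. It was called higher (log2 fold change 0.50, SE 0.18, limma adjusted p = 0.030), and the call was lost when any of 7 libraries was left out alone. The call of mt-Nd6 held after median-ratio scaling. It was lost relative to the mitochondrial mRNAs (log2 difference 0.15, limma adjusted p = 0.38) and after cyclic loess (0.16, adjusted p = 0.43). mt-Nd5 encodes a proton-pumping subunit at the far end of the membrane arm. It ranged over 12366 to 19451 FPKM against 10991 to 14093, with no call (log2 fold change 0.30, limma adjusted p = 0.056). mt-Nd4, a further proton pump, had a ratio of means of only 1.11 (log2 fold change 0.14, limma adjusted p = 0.19), and relative to the mitochondrial mRNAs it was called lower (log2 difference -0.21, adjusted p = 0.012). mt-Nd4l and mt-Nd3, small membrane subunits, stood at 486 to 745 against 424 to 669 FPKM and at 168 to 340 against 192 to 267 FPKM, and neither was called (limma adjusted p = 0.084 and 0.68). The difference in mt-Nd3 turned to the other sign without LPS+ART replicate 3 (log2 fold change -0.05).

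Complex IV mRNAs encode the catalytic core of cytochrome c oxidase. mt-Co1, the subunit that reduces oxygen, was the most abundant mRNA in both groups. Its values were 66935, 67746, 70400, 76300 and 66780 FPKM in LPS+ART and 61025, 59802, 60214, 67935 and 62054 in LPS+Vehicle. Only LPS+Vehicle replicate 4 reached into the LPS+ART range, and the difference was not called (log2 fold change 0.16, SE 0.07, limma adjusted p = 0.062). Relative to the mitochondrial mRNAs mt-Co1 was called lower (log2 difference -0.19, adjusted p = 0.0094), and after cyclic loess as well (-0.40, adjusted p = 2.4e-04). It was called higher with median-ratio scaling (0.56, limma adjusted p = 0.0025), a filter at 1 FPKM (0.16, 0.043), voom (0.16, 0.045) and without LPS+Vehicle 4 (0.19, 0.030), so its direction depends on the scaling. mt-Co2, the subunit that takes electrons from cytochrome c, stood at 2560, 2397, 2515, 1997 and 1987 FPKM against 1807, 1805, 1386, 1890 and 1907. mt-Co3 stood at 1399, 1519, 1533, 1503 and 1226 FPKM against 1192, 1084, 929, 1128 and 1221. Both groups of values separated, by a narrow margin for mt-Co3. Their ratios of means were 1.30 and 1.29 (log2 fold changes 0.38 and 0.37, SE 0.11 and 0.09, limma adjusted p = 0.010 and 0.0043). Relative to the mitochondrial mRNAs the log2 differences were 0.03 and 0.02 (adjusted p = 0.84 and 0.87) and after cyclic loess 0.11 and 0.14 (adjusted p = 0.40 and 0.21), so both calls were lost. Without the filter mt-Co2 also lost its call (adjusted p = 0.051). The copies of both are identical in sequence, and the sum of gene and copy was 3316 ± 396 against 2476 ± 305 FPKM for mt-Co2 and 2336 ± 182 against 1850 ± 224 for mt-Co3.

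The remaining mRNAs were mt-Cytb and the ATP synthase pair. mt-Cytb, the cytochrome b of complex III, stood at 26614, 24311, 32732, 37146 and 30922 FPKM in LPS+ART. In LPS+Vehicle it stood at 21611, 26506, 24262, 27702 and 27089 FPKM. LPS+ART replicates 1 and 2 fell within the LPS+Vehicle range, and the gene was not called (log2 fold change 0.24, SE 0.12, limma adjusted p = 0.094). After cyclic loess it was called lower (-0.25, adjusted p = 0.040). mt-Atp8 and mt-Atp6 encode membrane subunits of ATP synthase and share an mRNA. They stood at 174 to 266 against 112 to 239 FPKM and at 1574 to 1996 against 1083 to 1773 FPKM. Both overlapped between groups and were called higher (log2 fold changes 0.53 and 0.32, SE 0.19 and 0.13, limma adjusted p = 0.025 and 0.042). The calls were lost when any of 4 libraries (mt-Atp8) or 6 libraries (mt-Atp6) was left out alone. Both calls held after median-ratio scaling. Relative to the mitochondrial mRNAs neither mt-Atp8 nor mt-Atp6 was called (log2 differences 0.18 and -0.028, limma adjusted p = 0.28 and 0.85). After cyclic loess mt-Atp8 was called (0.50, adjusted p = 0.042) and mt-Atp6 was not (0.076, adjusted p = 0.63).

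**Figure D4:**
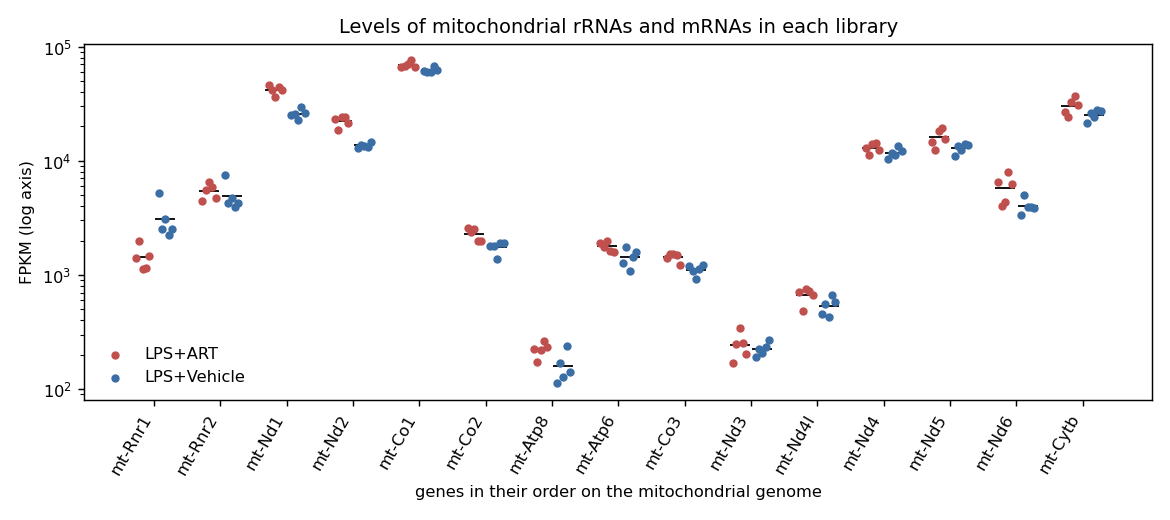
FPKM (log axis) of the mitochondrial rRNAs and mRNAs in each library, in their order on the mitochondrial genome, with 1 point per library and a line at each group mean (n = 5). The mRNA levels run from 112 FPKM (mt-Atp8) to 76300 FPKM (mt-Co1), and mt-Rnr1 is the only gene with every LPS+Vehicle value above every LPS+ART value.

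The order of the 13 mRNAs by mean level was the same in both groups. It ran mt-Co1, mt-Nd1, mt-Cytb, mt-Nd2, mt-Nd5, mt-Nd4, mt-Nd6, mt-Co2, mt-Atp6, mt-Co3, mt-Nd4l, mt-Nd3 and mt-Atp8. Reads shared with nuclear copies leave the FPKM of mt-Co2, mt-Atp6, mt-Co3, mt-Nd4l and mt-Nd3 uncertain, and with it their places in this order. The ranges of the neighbours mt-Nd1 and mt-Cytb, mt-Nd2 and mt-Nd5, mt-Nd5 and mt-Nd4, mt-Co2 and mt-Atp6, and mt-Nd3 and mt-Atp8 overlapped in both groups, so these steps were not larger than the spread between libraries. The 4 most abundant mRNAs held 79.1 ± 1.37% of mitochondrial mRNA reads with artesunate and 78.4 ± 0.912% with vehicle. Within LPS+ART, replicate 4 was highest in 6 mRNAs and replicate 3 in 5, while replicate 2 was lowest in 7. Within LPS+Vehicle, replicate 4 was highest in 7, replicate 1 lowest in 7 and replicate 3 lowest in 5. Without LPS+ART replicates 3 and 4, 4 mRNAs were called higher (mt-Nd1, mt-Nd2, mt-Co2 and mt-Co3). These same 4 were called whichever single library was left out, on the values as deposited.

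The 2 rRNAs did not move together. mt-Rnr1, the RNA of the small ribosomal subunit, stood at 1420, 1966, 1116, 1157 and 1462 FPKM in LPS+ART replicates 1 to 5 and at 5171, 2550, 3114, 2215 and 2537 in LPS+Vehicle. Every LPS+ART value was below every LPS+Vehicle value, as in 42.5% of the genes tested. The ratio of means was 0.457 (log2 fold change -1.09, SE 0.22, limma adjusted p = 0.0012), and the gene was called lower under each of the 20 alternatives run. mt-Rnr2, the RNA of the large subunit, stood at 4446, 5600, 6577, 5948 and 4740 FPKM in LPS+ART and at 7571, 4239, 4741, 3944 and 4253 in LPS+Vehicle. LPS+Vehicle replicate 1 was the highest of all libraries in both rRNAs. Without it mt-Rnr2 was called higher (log2 fold change 0.34, limma adjusted p = 0.034), whereas with all libraries it was not (0.17, SE 0.18, adjusted p = 0.41). Median-ratio scaling also gave a call for mt-Rnr2 (0.56, adjusted p = 0.026), and cyclic loess gave the other sign (-0.18, adjusted p = 0.43). Oligo-dT capture selects RNAs by their poly(A) tail, and these rRNA values are levels in the captured fraction.

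Among the 6 tRNAs in the table, mt-Tp and mt-Tc held nearly all reads. Both are encoded on the light strand, as are 5 of the 6. A captured tRNA sequence can come from the tRNA or from an uncut precursor, which these counts do not separate. The gene sequences of both, each shorter than the 100-base stretch used for the comparison with nuclear copies, are printed here to show how little template they offer.
mt-Tp: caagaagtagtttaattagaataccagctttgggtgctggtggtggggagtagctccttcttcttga
mt-Tc: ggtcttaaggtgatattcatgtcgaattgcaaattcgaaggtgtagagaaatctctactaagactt

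mt-Tp, the proline tRNA beside the control region of the mitochondrial genome, stood at 1598, 1374, 1854, 2399 and 2066 FPKM in LPS+ART and at 1381, 1718, 1717, 1517 and 1614 in LPS+Vehicle. The groups overlapped, and it was not called (log2 fold change 0.20, SE 0.14, limma adjusted p = 0.22). Its 2849 to 6239 reads per library exceeded those of the other 5 tRNAs by far. mt-Tc, the cysteine tRNA, stood at 6.65, 11.6, 7.90, 76.0 and 25.2 FPKM against 5.91, 16.9, 5.59, 6.06 and 6.37. A single library, LPS+ART replicate 4, held 167 of the 284 LPS+ART reads, and mt-Tc was not called (log2 fold change 1.07, SE 0.56, limma adjusted p = 0.12). mt-Ta, mt-Tn, mt-Te and mt-Tt had 0 or 2 reads in each library, at or under the floor of 3 reads, so no level or difference was detectable at this depth.

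Ratios between mitochondrial genes do not depend on a factor that scales a whole library, and 6 pairs were compared by exact two-sided permutation of the 10 libraries, adjusted over the 6. The smallest p these regroupings can give is 0.00794. The mt-Rnr1 to mt-Rnr2 ratio was 0.319, 0.351, 0.170, 0.195 and 0.309 in LPS+ART and 0.683, 0.602, 0.657, 0.562 and 0.597 in LPS+Vehicle. The groups did not overlap (log2 difference -1.26, SE 0.22, exact permutation p = 0.00794, adjusted p = 0.048). LPS+Vehicle replicate 1, highest in both rRNAs, did not stand apart in their ratio, and LPS+ART replicates 3 and 4 were lowest. Without those 2 the difference was -0.92 (adjusted p = 0.054), where 3 against 5 libraries allow no unadjusted p below 0.0179. The mt-Cytb to mt-Nd1 ratio compares a gene near the far end of the heavy-strand transcript with one near its start. It was 0.574, 0.584, 0.900, 0.830 and 0.741 in LPS+ART and 0.863, 1.03, 1.07, 0.930 and 1.03 in LPS+Vehicle. It was lower in LPS+ART (log2 difference -0.46, SE 0.14, exact permutation p = 0.0159, adjusted p = 0.048), with LPS+ART replicate 3 inside the LPS+Vehicle range. The call was lost when any of 5 libraries was left out alone (LPS+ART 1 and LPS+Vehicle 2, 3, 4 and 5), and with LPS+Vehicle 2 and 5 averaged (adjusted p = 0.12).

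**Figure D5:**
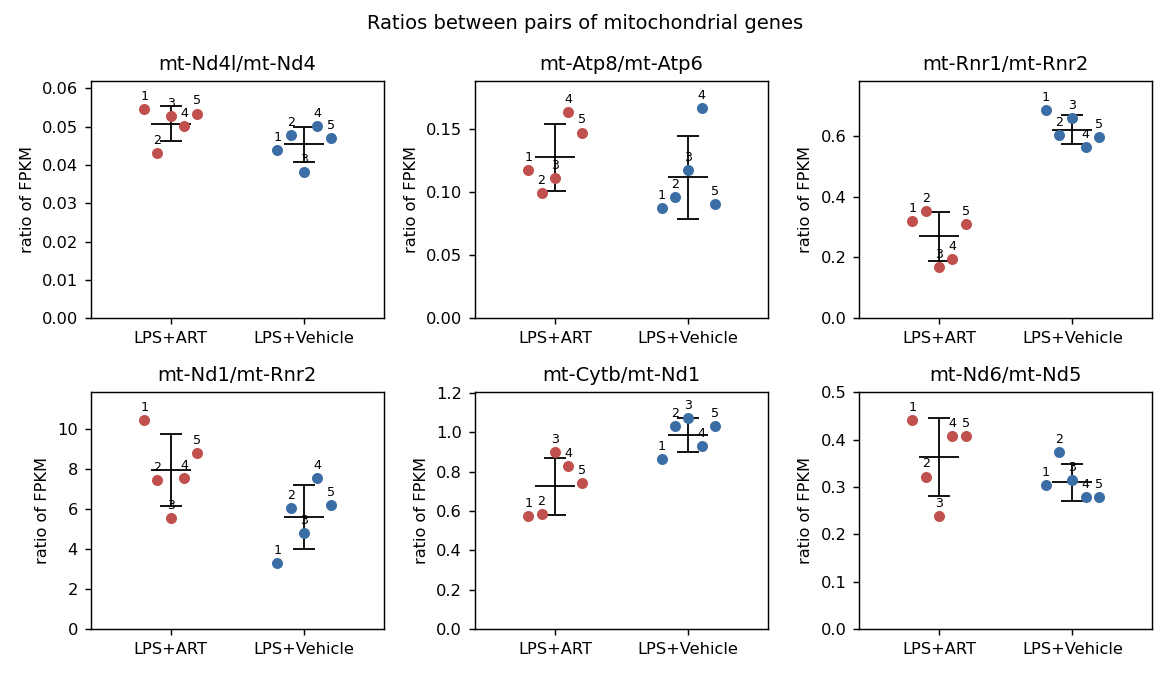
Ratio of FPKM for 6 pairs of mitochondrial genes in each library, with points for libraries marked with their replicate number and lines for the mean and SD (n = 5 per group). The mt-Rnr1 to mt-Rnr2 ratio lies between 0.170 and 0.351 in LPS+ART and between 0.562 and 0.683 in LPS+Vehicle, and the groups overlap in the other 5 pairs.

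The other 4 pairs were not called. The mt-Nd1 to mt-Rnr2 ratio, which spans the boundary between the rRNA and mRNA portions, was 7.94 ± 1.81 against 5.58 ± 1.604 (log2 difference 0.53, SE 0.25, exact permutation p = 0.0794, adjusted p = 0.16). The genes of the other 3 pairs overlap in sequence. How reads in the overlap were counted is not given in the sources used here. In each sequence that follows, the capitals are the bases shared with the partner gene, which are on the opposite strand for mt-Nd5 and mt-Nd6.
mt-Atp8: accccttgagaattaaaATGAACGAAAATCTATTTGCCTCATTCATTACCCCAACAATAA
mt-Nd4l: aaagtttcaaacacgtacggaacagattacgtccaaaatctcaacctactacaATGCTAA
mt-Nd5: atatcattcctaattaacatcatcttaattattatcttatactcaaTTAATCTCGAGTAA
mt-Nd6: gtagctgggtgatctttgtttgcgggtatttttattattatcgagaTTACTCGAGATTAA

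The overlap covers 43 bases of mt-Atp8 with mt-Atp6, 7 of mt-Nd4l with mt-Nd4, and 14 of mt-Nd5 with mt-Nd6. Within the shared mRNAs the ratio of mt-Atp8 to mt-Atp6 was 0.127 ± 0.0266 against 0.112 ± 0.0328 (exact permutation p = 0.341, adjusted p = 0.34). The ratio of mt-Nd4l to mt-Nd4 was 0.0508 ± 0.00462 against 0.0454 ± 0.00462 (exact permutation p = 0.119, adjusted p = 0.18). Both ratios are far from 1 although each pair sits on a single mRNA. The share of 100-base stretches also found in another annotated transcript differs within both pairs. It was 99.5% in mt-Atp6 and 0 in mt-Atp8, and 98.5% in mt-Nd4l and 60.8% in mt-Nd4. How far this enters the ratios was not tested. The light-strand to heavy-strand ratio of mt-Nd6 to mt-Nd5 was 0.363 ± 0.0820 against 0.310 ± 0.0385 (exact permutation p = 0.302, adjusted p = 0.34). Without strand information, reads from the opposite strand of a gene cannot be told apart from its own, and the strand setting is not given in the sources used here.

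Nuclear genes for mitochondrial gene expression were mostly lower on the values as deposited. In 3 lists, of transcription and replication, of RNA processing and decay, and of RNA modification, 62 genes were tested, and limma called 3 higher and 45 lower as deposited, 10 and 29 after median-ratio scaling, and 11 and 26 after cyclic loess. In these settings 52.9%, 30.3% and 28.7% of all genes were called lower, and 11.8%, 29.9% and 29.0% higher. Of the 15 transcription and replication genes tested, 13 were lower and none higher, with a median log2 fold change of -0.50. Polrmt, the mitochondrial RNA polymerase, stood at 2.79 ± 0.360 against 6.28 ± 0.485 FPKM (log2 fold change -0.94, limma adjusted p = 7.2e-06). The elongation factor Tefm (4.32 ± 1.11 against 10.8 ± 1.04 FPKM) and Mterf2, of the termination factor family (0.754 ± 0.283 against 4.63 ± 1.34 FPKM), were also called lower, as was Tfb1m, an rRNA methyltransferase (0.256 ± 0.132 against 1.48 ± 0.321 FPKM). Tfb2m, the initiation factor, was called lower at 16.6 ± 1.17 against 19.6 ± 1.23 FPKM, and after median-ratio scaling its difference had the other sign (0.14, adjusted p = 0.096). Tfam, which packages and activates mitochondrial DNA, stood at 6.996 ± 0.476 against 7.87 ± 0.242 FPKM (limma adjusted p = 0.054), but after median-ratio scaling it was higher (log2 fold change 0.20, adjusted p = 0.026).

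Of the 22 processing and decay genes tested, 13 were lower and none higher (median log2 fold change -0.43), where 52.9% of all genes were lower. After median-ratio scaling 9 were lower and 5 higher (median -0.07), and after cyclic loess 10 and 4. Fastkd1, a member of a family of mitochondrial RNA-binding proteins, stood at 1.28 ± 0.399 against 7.18 ± 0.652 FPKM. Ptcd1 (3.22 ± 0.529 against 7.92 ± 0.588 FPKM) and Ptcd2 (7.45 ± 1.249 against 20.8 ± 3.82 FPKM) encode further RNA-binding proteins and were lower too. Lrpprc, which stabilises mitochondrial mRNAs, was not called as deposited (20.5 ± 2.32 against 18.9 ± 2.16 FPKM, limma adjusted p = 0.31), yet higher after median-ratio scaling (log2 fold change 0.49, adjusted p = 9.9e-04). The poly(A) polymerase Mtpap (4.00 ± 0.321 against 4.54 ± 0.544 FPKM) was not called as deposited either. The RNA-degrading phosphorylase Pnpt1 was likewise not called as deposited (14.5 ± 2.19 against 13.9 ± 1.18 FPKM). Pnpt1 was called higher after median-ratio scaling (log2 fold change 0.42, limma adjusted p = 0.0010) and after cyclic loess (0.32, adjusted p = 0.0067). Slirp, the partner of Lrpprc, was below the filter at 0.00773 ± 0.0107 against 0.0166 ± 0.00914 FPKM. Among 25 modification genes tested, 19 were lower and 3 higher (median -0.37), and after median-ratio scaling 11 and 4. The tRNA methyltransferase Trmt5 (1.89 ± 0.338 against 14.4 ± 5.40 FPKM) and the rRNA methyltransferases Mrm1 (1.22 ± 0.459 against 5.06 ± 0.983 FPKM) and Mrm2 (1.28 ± 0.682 against 4.96 ± 0.550 FPKM) were lower. The 3 higher genes act on tRNAs: Yrdc (15.9 ± 2.16 against 7.14 ± 1.74 FPKM), Alkbh1 (3.32 ± 0.284 against 1.51 ± 0.345 FPKM) and Qtrt1 (4.85 ± 0.520 against 3.63 ± 0.451 FPKM).

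The nuclear subunits of the same complexes were more often called higher than lower as deposited. Of 36 complex I subunits tested, 13 were higher and none lower as deposited, with a median log2 fold change of 0.17, where 11.8% of all genes were higher and 52.9% lower. Ndufa5 stood at 160.2 ± 14.8 against 115 ± 7.14 FPKM, Ndufb10 at 242 ± 25.5 against 181 ± 11.4 FPKM and Ndufa6 at 67.4 ± 7.32 against 53.1 ± 1.061 FPKM. Complex III had 4 of 9 higher and none lower, among them Uqcrb, Uqcrh and Uqcrq with ratios of means of 1.24, 1.18 and 1.16. Complex IV had 6 of 13 higher and 2 lower. The higher ones included Cox8b (457 ± 113 against 328 ± 26.2 FPKM), Cox6a2 (974 ± 30.1 against 800 ± 58.7 FPKM) and Cox7a2 (182 ± 22.6 against 153 ± 10.2 FPKM). The lower ones were Cox6a1 (41.8 ± 8.71 against 70.2 ± 5.44 FPKM) and Cox8a (75.1 ± 8.71 against 97.5 ± 6.52 FPKM). ATP synthase had 7 of 16 higher and none lower, with ratios of means of 1.20, 1.18 and 1.17 for Atp5g1, Atp5f1 and Atp5g3. The calls of Cox7a2, Uqcrb and Atp5g3 were lost with LPS+Vehicle 2 and 5 averaged, and each in 7 of the 10 fits that left out 1 library. After median-ratio scaling the higher counts were 35, 9, 11 and 16 for complexes I, III, IV and V, where 29.9% of all genes were higher. Cox6a1 was still lower, and Cox8a was no longer called. After cyclic loess 25, 3, 1 and 8 were higher, where 29.0% of all genes were, and 2 of complex IV and 1 of complex V were lower. Relative to the mitochondrial mRNAs none was higher, and 8, 3, 4 and 3 were lower, where 71.2% of all genes were.

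Capture of RNA without a poly(A) tail could be followed in few genes. Of 12 small noncoding RNAs that normally lack such a tail, 4 were in the table and 1, Rnu73b, passed the filter. It was called higher, at 6.70 ± 2.64 against 2.59 ± 1.58 FPKM (log2 fold change 1.16, limma adjusted p = 0.012). Whether its reads came from the small RNA itself or from a longer precursor was not tested. Whether a difference in capture between the groups touches the mitochondrial rRNAs and tRNAs was not tested.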

How the data were processed

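RNA had been taken from 10 hearts, selected on oligo-dT beads, primed with random hexamers and sequenced from both ends, as the labels' protocols say (per the labels). The submitters' processing notes name the genome build mm9, while aligner, counter, annotation and strand setting were not given in the sources used here. The authors' deposited unit is FPKM, as judged from the values, with no scaling between samples. Each FPKM times its GENCODE M21 exon length was a whole multiple of 1 read for 29005 of 29538 matched genes (98.2%, tolerance 0.01 read), which gave the read numbers. M21 belongs to a later build, so no coordinates are printed. Read numbers of 1 to 4 were even in 64.0% of cases, so reads are not independent, and intervals or floors cover counting error only. No per-sample column was left unmapped.

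Symbols and the 100-base and 50-base comparisons came from GENCODE M21 transcripts (GRCm38), and only annotated transcripts were searched. limma-trend (limma 3.58.1, R 4.3.3) was fitted on log2(FPKM + 1), for genes averaging 0.5 FPKM or more, to all 10 libraries with a group term alone and Benjamini-Hochberg adjustment over 13314 genes. The fold changes refer to log2(FPKM + 1), so those of low genes are understated, and ratios are of mean FPKM. Gene pairs were tested on log2 ratios of FPKM. The code was tested on simulated data, and plots were made in Python 3.11.15 (matplotlib 3.10.9). The p-values cover the spread among the 10 libraries, which may be technical, since separate animals per library are stated only through the group sizes. LPS+Vehicle replicates 2 and 5 differed far less than the other pairs of the same group. That chi-square was taken on read pairs, so mates counted apart do not raise it. They were kept as separate libraries, with their mean as an alternative.

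Members and lists were chosen with earlier results of these data known. Every member is accounted for. Other genes named are up to 3 called rises and 3 called falls of each list, and Polrmt, Tfam, Tfb2m, Tefm, Lrpprc, Slirp, Mtpap and Pnpt1 whatever their call. The alternatives were median-ratio scaling, scaling to the 13 mitochondrial mRNAs, cyclic loess, a pseudocount of 0.1, no filter, a filter at 1 FPKM, a replicate block, limma-voom on recovered reads, LPS+Vehicle 2 and 5 averaged, omission of LPS+ART 3 and 4, and omission of every library singly. For the gene pairs, averaging LPS+Vehicle 2 and 5 and leaving out LPS+ART 3 and 4 were chosen after seeing the data.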

Additional observations from a re-analysis of the deposited data

Results flagged for a closer look

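Of 63 groups of 5 values looked at, 8 held a library whose gap to its nearest neighbour, as a share of the group's range, was above Dixon's critical value. Chance gives about 1 in 20 for independent groups. These groups are not independent: the rRNA share includes mt-Rnr2 and the complex IV share includes mt-Co1. The count is therefore not read against that rate. mt-Rnr2 in LPS+Vehicle replicate 1 was 7571 FPKM, against 3944 to 4741 in the other 4, and the rRNA share of that library was 1.69% of reads against 0.835 to 1.05%. mt-Tc was 76.0 FPKM in LPS+ART replicate 4 against 6.65 to 25.2 in the others, and 16.9 FPKM in LPS+Vehicle replicate 2 against 5.59 to 6.37. mt-Co1 was 67935 FPKM in LPS+Vehicle replicate 4 against 59802 to 62054, and the complex IV mRNAs took 10.7% of that library's reads against 9.45 to 9.81%. mt-Co2 was lowest in LPS+Vehicle replicate 3, at 1386 FPKM against 1805 to 1907. mt-Te was 0 FPKM in LPS+ART replicate 1 against 0.790 to 0.945 in the others, where each value rests on 2 reads.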

How the results depend on the processing

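The 7 mRNAs called higher as deposited became 12 with median-ratio scaling, 2 relative to the mitochondrial mRNAs, 2 with cyclic loess, 2 without a filter, 4 without LPS+ART 3 and 4, 4 to 9 when 1 library was left out (4 without LPS+Vehicle 1 or 3) and 5 with the replicate block. The 0 called lower became 2 relative to the mitochondrial mRNAs and 3 with cyclic loess. The 0 rRNAs and 0 tRNAs called higher became 1 each with median-ratio scaling, and 0 to 1 when 1 library was left out (1 without LPS+Vehicle 1 for rRNAs and without LPS+ART 2 for tRNAs). The other genes of mitochondrial expression, 3 higher and 45 lower, became 10 and 29 with median-ratio scaling and 11 and 26 with cyclic loess. Deviations of same-numbered libraries correlated at -0.070 to 0.182, above 0.1 in 3 of 5 pairs, so pairing by number was not established. With the replicate block mt-Atp6, mt-Nd6 and Atp5g3 lost their calls, and the pair ratios mt-Rnr1 to mt-Rnr2 (-1.26) and mt-Cytb to mt-Nd1 (-0.46) had an adjusted p of 0.19, where 5 pairs allow none below 0.0625. Without LPS+ART 3 and 4 these ratios were -0.92 and -0.64 (adjusted p = 0.054). With LPS+Vehicle 2 and 5 averaged the second was -0.44 (adjusted p = 0.12). Leaving out 1 library gave -1.37 to -1.11 for the first, -0.54 to -0.38 for the second and 0.10 to 0.22 for mt-Nd4l to mt-Nd4, which was called without LPS+ART 2.

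Log2 fold changes took the other sign relative to the mitochondrial mRNAs for mt-Rnr2 (-0.18), mt-Co1 (-0.19), mt-Atp6 (-0.028), mt-Nd3 (-0.27), mt-Nd4l (-0.045), mt-Nd4 (-0.21), mt-Nd5 (-0.057), mt-Cytb (-0.11), mt-Tp (-0.15), Ndufa6 (-0.015), Uqcrq (-0.14), Uqcrh (-0.12), Uqcrb (-0.059), Cox7a2 (-0.11), Cox6a2 (-0.067), Atp5g3 (-0.13), Atp5f1 (-0.12), Atp5g1 (-0.091), Lrpprc (-0.22) and Pnpt1 (-0.28), as that scaling's construction lowers LPS+ART values. They did so with cyclic loess for mt-Rnr2 (-0.18), mt-Co1 (-0.40), mt-Nd4 (-0.28), mt-Nd5 (-0.14), mt-Cytb (-0.25), mt-Tp (-0.052), Tfam (0.19), Tfb2m (0.0060) and Mtpap (0.24), and with median-ratio scaling for Cox8a (0.012), Tfam (0.20), Tfb2m (0.14) and Mtpap (0.17). mt-Nd3 did so without LPS+ART 3 (-0.048; -0.048 to 0.21 over single omissions) and without LPS+ART 3 and 4 (-0.13), and Pnpt1 without LPS+ART 1 (-0.0028; -0.0028 to 0.11). Apart from the first, the causes were not tested. Single genes otherwise kept direction and call in 843 of 979 combinations of gene and setting, lost the call in 75 and gained one in 25. Depth limits the 4 tRNAs with 0 or 2 reads, mt-Tc (12 to 167 reads) and Slirp.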
